A study of Homo sapiens with 36 samples.

Results

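The genes of cholesterol synthesis, uptake, esterification and efflux were followed across 9 hormone treatments of ZR-75-1, an established human line of luminal breast cancer cells with an estrogen receptor. The members are 32 genes of sterol metabolism, fixed as a list by their function and not by their values, each followed through the array probes that the platform annotation assigns to it. Of these, 31 had a probe in the annotation, FDFT1 was not analysed here, and the single probe of STARD4 was above background on 1 of 36 arrays and was not kept. The remaining 30 genes were tested among 12195 genes in all. RNA was labelled as biotinylated cRNA and hybridised to Illumina bead arrays, and the samples form 9 groups of 4. All cells stood for 48 h in medium with 10% hormone-stripped serum before 16 h of treatment. The groups are ethanol vehicle (VC in the labels), estradiol (E2), 5a-dihydrotestosterone (DHT, an androgen), progesterone (PROG), medroxyprogesterone acetate (MPA), which is a synthetic relative of progesterone, E2+DHT, E2+MPA, E2+PROG and a further estradiol and progesterone group written E2s+PROG, whose s the labels do not explain. The dose of E2 and of DHT was 10 nM, in the single treatments and in their combination, while the labels state no dose for MPA or PROG or for the estradiol given with them. All groups come from 1 cell line in culture, and nothing in the labels says that the 4 replicates are separate cultures. P-values therefore reflect the spread of replicates within groups, pooled over all groups in the fit, and that spread may be technical.

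Cholesterol is built from acetyl units through mevalonate, isoprenoids and squalene to lanosterol, which a series of enzymes in the endoplasmic reticulum trims to cholesterol. When membrane sterol falls, SCAP carries the transcription factor SREBP2 (gene SREBF2) out of the endoplasmic reticulum for activation, INSIG1 and INSIG2 hold the complex back when sterol is plentiful, and activated SREBP2 works with the factor NF-Y at the promoters of synthesis genes. Surplus cholesterol is esterified by SOAT1 or SOAT2 for storage in droplets, or exported by ABCA1 and ABCG1, and breast cells also draw on it for membranes.

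All 9 markers of luminal breast epithelium were above background on all 36 arrays. Of the 4 basal markers, KRT5 and KRT14 were above background on 0 arrays and the other pair had no probe in the annotation. Of the fibroblast markers, COL1A1 was above background on 36 arrays, DCN on 5, LUM on 1 and COL1A2 and COL3A1 on 0. Of the leukocyte markers, CD68 was above background on 36, LYZ on 27 and PTPRC and CD3E on 0. Of the endothelial markers, PECAM1 was above background on 34, VWF on 26 and CDH5 on 0, and of the adipocyte markers PLIN1 on 11, FABP4 on 2 and ADIPOQ and LPL on 0. Between 33.2% and 37.9% of the 48803 probes were above background per array, and the correlation across genes between replicates of a group was 0.915 to 0.994, a figure over genes that are not independent. FKBP5, an established steroid receptor target used as a check of treatment, differed from vehicle by a log2 of 1.87 with DHT, 1.68 with MPA and 0.17 with PROG, and from E2 by 1.74 with E2+PROG and 0.55 with E2s+PROG. Arrays also differed within groups along 1 direction that held 49.4% of the residual variance. The 12 arrays in columns 13 to 24 of the deposited table, called the run here although no label names it as a batch, lay on 1 side of it with scores from -49.2 to -6.16, and vehicle replicate 1, outside the run, lay beyond them at -53.8. The run holds 3 DHT arrays, 2 each of E2, E2+MPA and E2+PROG, 1 each of vehicle, E2+DHT and E2s+PROG, and 0 of MPA or PROG. For this reason a fit that includes the run as a blocking term, and values from either side of it alone, stand beside the results they touch. Where 1 side of the run holds a single array of a group, as it does for vehicle inside the run and for DHT outside it, that array was taken to vary like the arrays of the other groups.

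Promoter sequences from the RefSeq promoter table are shown for AACS, MVK, MYLIP and ABCA1, which passed a test described below. MSMO1, a sterol gene that varied widely among arrays, and SREBF2, which encodes the regulator itself, are also shown. Of the 32 members, 26 matched the table by symbol, with 34 promoters between them. SOAT2 and ABCG1 were among those without a match, so their promoters were not searched. Each sequence is the 250 bases before the RefSeq transcript start on GRCh38.p14, written 5′ to 3′ on the strand of the gene, and capitals mark matches to the motifs listed after them. The stretches are chr12:125065185-125065434 (plus strand) for AACS, chr12:109573544-109573793 (plus strand) for MVK, chr4:165327419-165327668 (plus strand) for MSMO1, chr22:41832855-41833104 (plus strand) for SREBF2, chr6:16128836-16129085 (plus strand) for MYLIP and chr9:104928156-104928405 (minus strand) for ABCA1.
AACS: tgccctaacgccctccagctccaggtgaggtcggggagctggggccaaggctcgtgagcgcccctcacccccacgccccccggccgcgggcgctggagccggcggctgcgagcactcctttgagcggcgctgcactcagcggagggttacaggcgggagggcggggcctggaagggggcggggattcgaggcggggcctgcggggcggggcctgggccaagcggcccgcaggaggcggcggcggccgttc
MVK: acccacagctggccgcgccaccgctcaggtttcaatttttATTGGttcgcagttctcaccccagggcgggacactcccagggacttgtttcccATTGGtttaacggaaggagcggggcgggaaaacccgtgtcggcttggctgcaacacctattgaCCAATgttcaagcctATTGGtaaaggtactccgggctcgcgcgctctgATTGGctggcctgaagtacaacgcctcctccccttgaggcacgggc
MSMO1: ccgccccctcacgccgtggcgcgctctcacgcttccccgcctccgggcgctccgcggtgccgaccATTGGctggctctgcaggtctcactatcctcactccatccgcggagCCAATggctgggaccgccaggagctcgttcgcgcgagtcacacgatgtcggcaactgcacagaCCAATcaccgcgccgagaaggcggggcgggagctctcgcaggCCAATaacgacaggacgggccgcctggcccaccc
SREBF2: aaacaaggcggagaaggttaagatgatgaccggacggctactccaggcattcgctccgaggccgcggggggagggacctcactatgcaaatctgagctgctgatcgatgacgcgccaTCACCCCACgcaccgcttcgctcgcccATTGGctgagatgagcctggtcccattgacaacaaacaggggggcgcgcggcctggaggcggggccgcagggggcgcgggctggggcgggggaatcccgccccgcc
MYLIP: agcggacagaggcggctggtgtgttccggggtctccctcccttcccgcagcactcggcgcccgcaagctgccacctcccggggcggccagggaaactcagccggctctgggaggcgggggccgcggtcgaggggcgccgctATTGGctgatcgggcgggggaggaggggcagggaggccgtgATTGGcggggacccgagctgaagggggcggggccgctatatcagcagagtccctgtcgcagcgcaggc
ABCA1: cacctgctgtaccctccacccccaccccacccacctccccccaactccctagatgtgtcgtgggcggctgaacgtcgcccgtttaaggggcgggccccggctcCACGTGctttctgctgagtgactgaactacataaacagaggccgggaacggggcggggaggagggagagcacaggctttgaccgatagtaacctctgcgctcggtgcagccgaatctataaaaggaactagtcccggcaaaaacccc

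The motifs searched on both strands were the NF-Y box CCAAT, the sterol response element TCACNCCAC, the E-box CACGTG, the steroid receptor element (GNACA and TGTNC, 3 bases apart), its half-site TGTTCT, the nuclear receptor half-site AGGTCA and the estrogen response element (GGTCA and TGACC, 3 bases apart). The half-site AGGTCA can share its letters GGTCA with the estrogen element, and TGTTCT can overlap the right arm of the steroid receptor element. The NF-Y box stood in 22 of 34 member promoters (64.7%), belonging to 19 of 26 member genes, and in 32% of the 35116 promoters of the same length in the table. MVK held 5 copies and MSMO1 4 in the stretches shown, and AACS held a match to no motif of the list. The sterol response element matched in 1 of 34 member promoters (2.94%), that of SREBF2, and in 0.883% of all promoters. The E-box matched in 5 of 34 member promoters (14.7%), those of ABCA1, INSIG1, SC5D and SCAP, and in 6.34% of all promoters. Neither the steroid receptor element nor the estrogen response element matched in a searched member promoter, against 0.327% and 0.0399% of all promoters. That says only that these letters are not in these windows, and SOAT2 and ABCG1 have no window here. TGTTCT matched in 2 of 34 member promoters (5.88%), of LIPA and PMVK, against 12.4% of all promoters. AGGTCA matched in 1 of 34 (2.94%), of DHCR7, against 12.1% of all promoters.

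Across 15 comparisons, 17 pairs of a member and a comparison passed an adjusted p of 0.05 (limma, Benjamini-Hochberg over all 12195 genes), and they belonged to 6 genes: SOAT2, AACS, ABCA1, MYLIP, INSIG2 and MVK. The other 24 tested members passed in no comparison. E2 against vehicle had 0 of 30 members past the threshold, with 1.86% of all genes called, and 6 members at an unadjusted p under 0.05, against 16.2% of all genes. DHT against vehicle had 3 (AACS higher, SOAT2 and ABCA1 lower), which is 10% of the members against 2.40% of all genes. MPA against vehicle had 2, SOAT2 and ABCA1, both lower, against 1.88% of all genes. PROG against vehicle had 0, against 0.0574% of all genes, and 8 at an unadjusted p under 0.05, against 23.6% of all genes. These comparisons share the 4 vehicle arrays.

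Added to E2, DHT gave 3 members past the threshold (AACS and MYLIP higher, SOAT2 lower), against 1.08% of all genes. E2+MPA against E2 gave 2, AACS higher and SOAT2 lower, against 2.14% of all genes. E2+PROG against E2 gave AACS alone, which is 3.33% of the members against 2.51% of all genes and so close to the background. E2s+PROG against E2 gave 0 members, against 0.0902% of all genes, with 1 at an unadjusted p under 0.05, against 1.78% of all genes. These comparisons share the 4 E2 arrays. Between treatments, E2s+PROG against E2+PROG gave 2 members, against 1.74% of all genes, and DHT against PROG gave 3, against 1.38%. MPA against PROG and DHT against MPA gave 0 members each, against 0.459% and 0.312% of all genes. At an unadjusted p under 0.05 they had 3 and 7 members, against 3.33% and 11.1% of all genes.

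**Figure D1:**
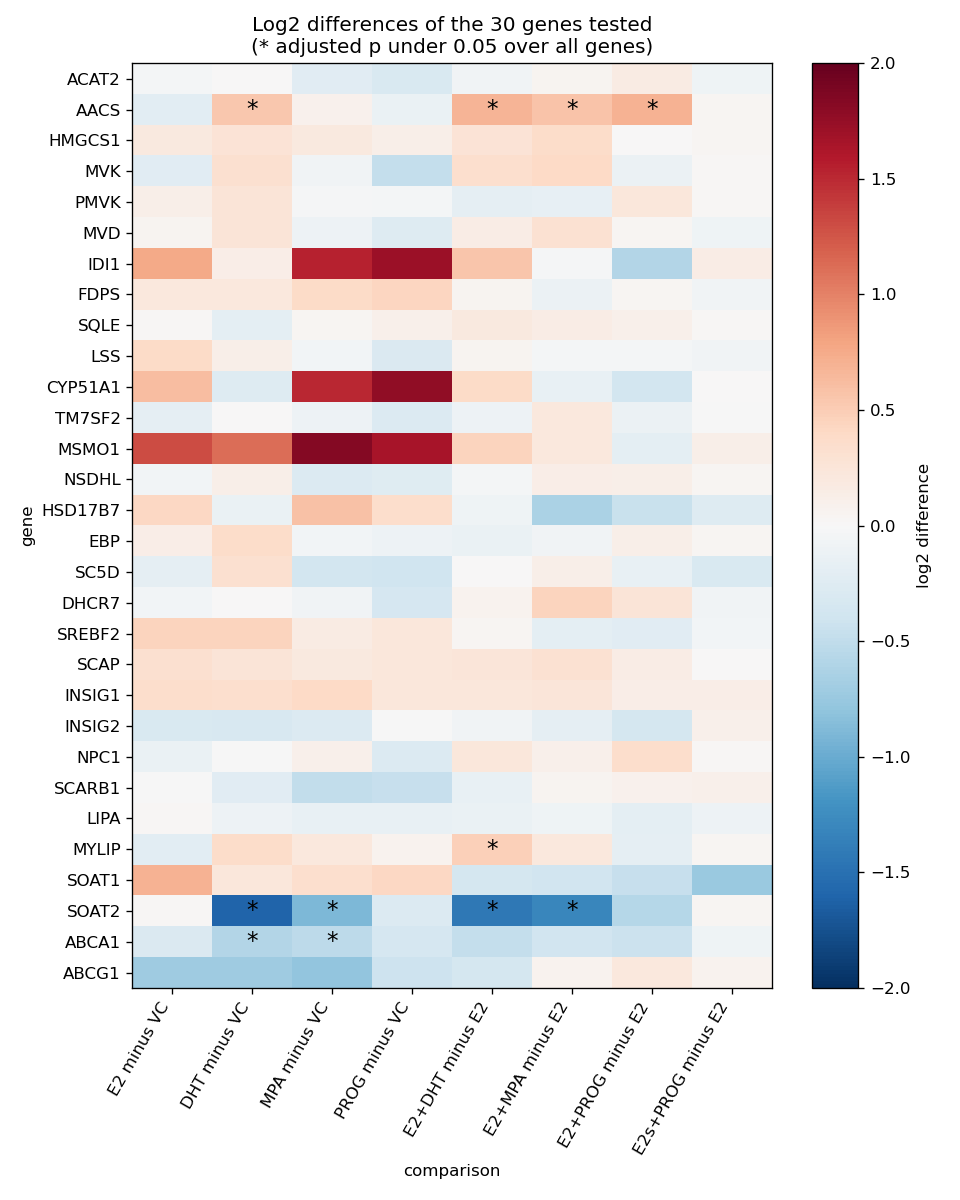
Fitted log2 differences (colour scale, from -2 to 2) of the 30 tested genes, ordered by role from synthesis at the top to efflux at the bottom, in the 8 comparisons whose control is vehicle or E2. Asterisks mark an adjusted p under 0.05 over all genes and fall only on AACS, MYLIP, SOAT2 and ABCA1, while the strong colours of IDI1, CYP51A1 and MSMO1 carry no asterisk.

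With the run as a block, the count rose to 5 members in E2 against vehicle and 8 in DHT against vehicle. The shares of all genes called rose to 12.4% and 8.28% in the same fits. MPA against vehicle then had 3 members, with 2.52% of all genes called. The members added by the block in E2 against vehicle were MSMO1, IDI1, CYP51A1 and SOAT1, all higher, and ABCG1, lower. In DHT against vehicle they were MSMO1, IDI1 and MYLIP, higher, and ABCG1 and SCARB1, lower. When vehicle replicate 1 was also left out, a choice made after the data were seen, the blocked count was 0 in E2 against vehicle, 6 in DHT against vehicle and 1 in MPA against vehicle, with 3.10%, 2.75% and 1.25% of all genes called.

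SOAT2, which joins cholesterol to a fatty acid for storage and is best known from intestine and liver, was lower with DHT and with MPA, with and without estradiol. Its log2 signal was 7.75, 7.65, 7.57 and 7.77 on the vehicle arrays and 6.29, 6.24, 5.97 and 5.84 on the DHT arrays. The groups did not overlap, and 2 of the 4 DHT arrays were not above background, the lowest such signal on an array being 5.86 to 6.21. The DHT mean of 6.09 ± 0.22 lay below the vehicle mean of 7.69 ± 0.09 (SD, n = 4 each), a fitted fall of 3.03-fold (log2 -1.60, SE 0.23, adjusted p = 3.86e-05). The difference was -1.64 among arrays inside the run (adjusted p = 0.0373) and -1.69 outside it (0.00144), each resting on a single array of 1 group, and it passed when each of the 8 replicates was left out in turn. On the second kept probe of SOAT2, above background on 9 arrays, the same difference was -0.67.

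On the MPA arrays SOAT2 was at 6.77, 7.15, 6.52 and 6.74, below every vehicle array. MPA lay 1.86-fold below vehicle (log2 -0.89, SE 0.23, adjusted p = 0.0355). That call was lost when MPA replicate 1, 3 or 4 or vehicle replicate 1, 3 or 4 was left out, with differences from -0.93 to -0.80 and adjusted p from 0.0518 to 0.142. It was also lost with median scaling (-0.68, adjusted p = 0.243), with the authors' processed values (-0.66, 0.113), with the mean of its probes (-0.54, 0.0721), with 3 sets of 12 columns as a block (-0.85, 0.0668), with only these groups in the fit (-0.89, 0.0716) and with the run as a block and vehicle replicate 1 left out (-0.83, 0.131). On the PROG arrays the signal was 7.56, 7.63, 7.42 and 7.05, a range that meets the vehicle values, and PROG differed from vehicle by -0.27 (95% confidence interval -0.75 to 0.20, adjusted p = 0.448). SOAT2 was 2.51-fold lower with DHT than with PROG (log2 -1.33, SE 0.23, adjusted p = 0.000648). The size of that fall is uncertain, since SOAT2 was above background on 2 of the 4 DHT arrays. On the second kept probe, above background on 9 arrays, DHT differed from PROG by -0.322 and MPA from vehicle by -0.185. DHT differed from MPA by -0.71 (interval -1.18 to -0.24, adjusted p = 0.325) and MPA from PROG by -0.62 (interval -1.09 to -0.15, adjusted p = 0.777), neither past the threshold.

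E2 left SOAT2 at 7.75, 7.90, 7.91 and 7.29, across the vehicle range, with a difference from vehicle of 0.03 (interval -0.45 to 0.50). With E2+DHT it was at 7.05, 5.96, 6.16 and 5.94, and the high value was the 1 array of this group inside the run. The groups did not overlap, and E2+DHT lay 2.70-fold below E2 (log2 -1.44, SE 0.23, adjusted p = 0.000233). The E2+DHT values of 5.96, 6.16 and 5.94 lie within 5.86 to 6.21, the range of the lowest signal above background on an array. The size of the fall is therefore uncertain. On the second kept probe, above background on 9 arrays, the same difference was -0.705. Within the run, where E2+DHT has that single array, the difference was -0.78 (adjusted p = 1), and outside it -1.58 (0.00016).

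With E2+MPA the values were 7.09, 6.78, 5.75 and 6.03, where the low pair came from the run and replicate 3 was not above background. E2+MPA lay 2.46-fold below E2 (log2 -1.30, SE 0.23, adjusted p = 0.000611). The difference was -1.94 inside the run (adjusted p = 0.00172) and -0.66 outside it (0.433), a move of over 1.5 times. With only these groups in the fit it did not pass (-1.30, 0.145). On the second kept probe, above background on 9 arrays, E2+MPA differed from E2 by -0.527. With E2+PROG the values of 6.87, 7.09, 7.20 and 7.41 reached into the E2 range, and the difference from E2 was -0.57 (interval -1.04 to -0.09, adjusted p = 0.347). E2s+PROG stood at 7.67 on 3 arrays and 7.99 on the other, with a difference from E2 of 0.04 (interval -0.44 to 0.51). None of the 3 interactions of estradiol with an added steroid passed for SOAT2, at 0.17 for DHT, -0.41 for MPA and -0.30 for PROG (adjusted p from 0.423 to 0.97). A difference in its response with and without estradiol was thus not shown. For DHT that test is limited, since SOAT2 lay near background with DHT and on most E2+DHT arrays.

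**Figure D2:**
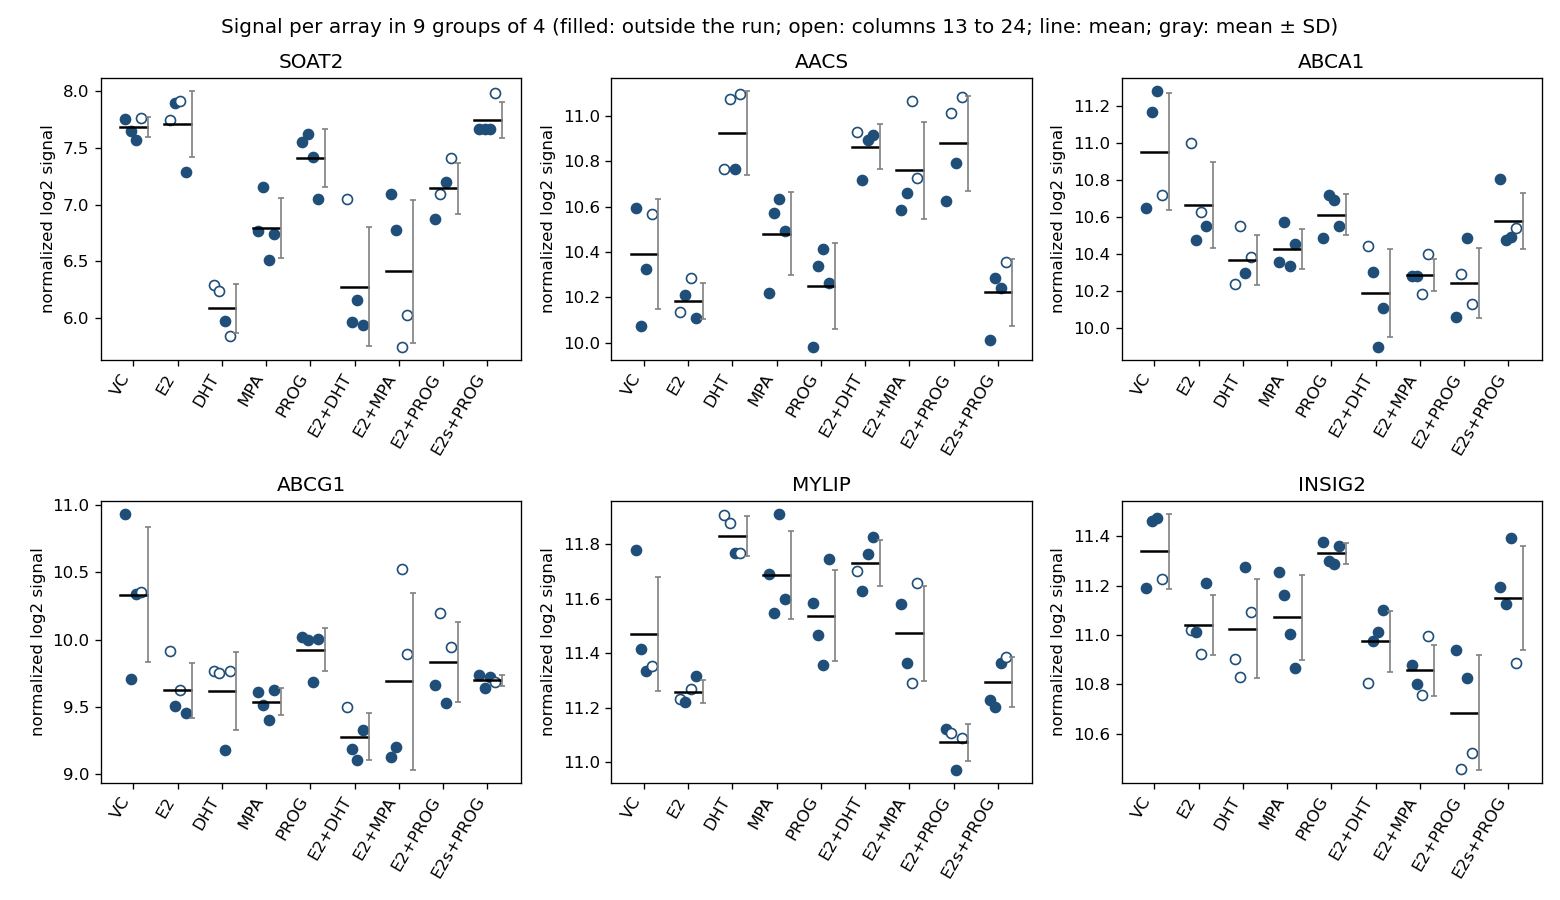
Normalised log2 signal of 6 genes on each of 36 arrays in 9 groups of 4, with group means (lines) and SD (gray bars); open points are the 12 arrays of columns 13 to 24. SOAT2 was lowest in the DHT, E2+DHT and E2+MPA groups, AACS was highest in DHT and in the 3 groups that combine E2 with DHT, MPA or PROG, and ABCA1 was highest in vehicle.

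The mean of 2 endothelial markers stood higher in the groups with DHT, and that mean does not show whether both genes rose. Its relation to the SOAT2 result was not tested. The mean log2 signal of the 2 tested endothelial markers of 3 listed was 7.38 to 8.08 on the DHT arrays and 7.04 to 7.74 with E2+DHT, against 6.09 to 6.77 with vehicle and 5.94 to 6.74 with E2. The tested pair, PECAM1 and VWF, was above background on 34 and 26 of 36 arrays, and the third marker, CDH5, on 0. With MPA the mean of the tested pair was 6.10 to 6.43, within the vehicle range.

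Among genes whose 9 group means followed those of SOAT2 most closely were LMO1 (Pearson r = 0.972 across group means), DKK1 (0.971), ATXN1-AS1 (0.964), ROR2 (0.955) and FJX1 (0.947), a description over 9 means that share the arrays.

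SOAT1, the widely expressed enzyme of the same reaction, did not pass in any comparison without the block. It was above background on 2 of 4 vehicle arrays, whose values were 6.03, 7.44, 6.98 and 6.07, while the E2 arrays were at 7.23, 7.44, 7.13 and 7.48. The vehicle values form a high and a low pair. Of the high pair, 7.44 lies within the E2 range and 6.98 lies below every E2 array. E2 differed from vehicle by 0.69 (SE 0.29, adjusted p = 0.241), by 0.82 with the run as a block (adjusted p = 0.0291) and by 0.58 with vehicle replicate 1 also left out (0.193). E2s+PROG lay below every E2 array, at 6.33 to 6.84, with a difference of -0.74 (interval -1.34 to -0.15, adjusted p = 1).

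Of the 8 genes that lead from acetyl units to farnesyl pyrophosphate, AACS carried 7 of the 8 calls. AACS encodes a cytosolic enzyme that turns acetoacetate, a ketone body, into acetoacetyl-CoA for lipid synthesis. Its log2 signal was 10.60, 10.07, 10.33 and 10.57 with vehicle and 10.77, 11.07, 10.77 and 11.10 with DHT, with no overlap. DHT lay 1.45-fold above vehicle (log2 0.54, SE 0.14, adjusted p = 0.0259). That call was lost without DHT replicate 2 or 4 or vehicle replicate 2 or 3, at differences of 0.43 to 0.51 and adjusted p of 0.0718 to 0.0927. On either side of the run alone, where 1 of the groups has a single array, the difference was 0.41 inside and 0.44 outside (adjusted p = 0.999 and 0.244). The 7 calls of AACS passed with the run as a block, and none of them passed with arrays scaled by their median or with only the compared groups in the fit. For DHT against vehicle those values were 0.37 (adjusted p = 0.386) and 0.54 (0.502).

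MPA alone left AACS at 10.22, 10.57, 10.63 and 10.49 and PROG alone at 9.98, 10.34, 10.41 and 10.27, both across the vehicle range. The differences from vehicle were 0.09 for MPA (interval -0.19 to 0.37) and -0.14 for PROG (interval -0.42 to 0.14). AACS was 1.60-fold higher with DHT than with PROG (log2 0.68, SE 0.14, adjusted p = 0.00374). That difference was 0.53 with the run as a block (adjusted p = 0.039), 0.52 outside the run, where DHT has a single array (1), 0.47 with median scaling (0.324) and 0.68 with only these groups in the fit (0.0794). DHT differed from MPA by 0.45 (interval 0.17 to 0.72, adjusted p = 0.25). With E2 alone the values were 10.13, 10.21, 10.28 and 10.11, and E2 differed from vehicle by -0.21 (interval -0.48 to 0.07, adjusted p = 0.447).

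On top of E2, each of the added steroids was accompanied by higher AACS. The signal was 10.93, 10.72, 10.89 and 10.92 with E2+DHT, which lies 1.60-fold above E2 (log2 0.68, SE 0.14, adjusted p = 0.00407). It was 10.58, 10.66, 11.07 and 10.73 with E2+MPA, 1.49-fold above E2 (log2 0.58, SE 0.14, adjusted p = 0.0145). It was 10.63, 11.01, 10.79 and 11.09 with E2+PROG, 1.62-fold above E2 (log2 0.70, SE 0.14, adjusted p = 0.00154). None of the 12 arrays overlapped the 4 E2 arrays they share as controls. The difference of E2+MPA was lost without E2+MPA replicate 3 (0.47, adjusted p = 0.107), while those of E2+DHT and E2+PROG passed when each replicate was left out. Taken on each side of the run alone, with fewer arrays, none of these 3 passed, at 0.69 to 0.84 inside it (adjusted p from 0.092 to 1) and 0.46 to 0.68 outside it (0.0842 to 0.644). With median scaling they were 0.41 to 0.59 (adjusted p from 0.191 to 0.303), and with only the compared groups in the fit the adjusted p was 0.0533 for E2+DHT, 0.284 for E2+MPA and 0.0519 for E2+PROG. The E2+MPA call was also lost with array weights (0.49, adjusted p = 0.0598).

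E2s+PROG did not share the higher AACS of E2+PROG. Its arrays were at 10.01, 10.28, 10.24 and 10.36, all below every E2+PROG array. The fall from E2+PROG was 1.58-fold (log2 -0.66, SE 0.14, adjusted p = 0.00415), and against E2 the difference was 0.04 (interval -0.24 to 0.32). The difference from E2+PROG was -0.61 with the run as a block (adjusted p = 0.00276). It did not pass inside the run, where E2s+PROG has a single array (-0.69, adjusted p = 0.835), outside it (-0.53, 0.26), with median scaling (-0.60, 0.124) or with only these groups in the fit (-0.66, 0.069).

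The response of AACS to progesterone differed with and without estradiol in a direct test on E2+PROG, but not under every alternative. The E2s+PROG group, which did not enter this test, had a mean of 10.22, near the E2 mean of 10.18. PROG differed from vehicle by -0.14 and E2+PROG from E2 by 0.70, and the interaction of 0.84 passed (SE 0.19, interval 0.44 to 1.23, adjusted p = 0.0153), in a comparison where 1.54% of all genes and 1 of 30 members were called. With the run as a block it was 0.79 (adjusted p = 0.00762, with 3.57% of all genes called). It was lost by a narrow margin without E2+PROG replicate 2 or 4 or PROG replicate 1 (0.75 to 0.79, adjusted p from 0.0503 to 0.0517) and among arrays outside the run (0.63, 0.163). It was also lost with median scaling (0.60, adjusted p = 0.318), with the authors' processed values (0.59, 0.079) and with only the 4 groups in the fit (0.84, 0.0811). The labels do not say whether the estradiol of E2+PROG had the dose of E2 alone. The interactions with DHT and MPA were 0.15 (adjusted p = 0.949) and 0.49 (0.15). Those comparisons called 0 members, against 0.00820% and 0.0656% of all genes. At an unadjusted p under 0.05 they had 2 and 4 members, against 5.47% and 24.1% of all genes.

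**Figure D3:**
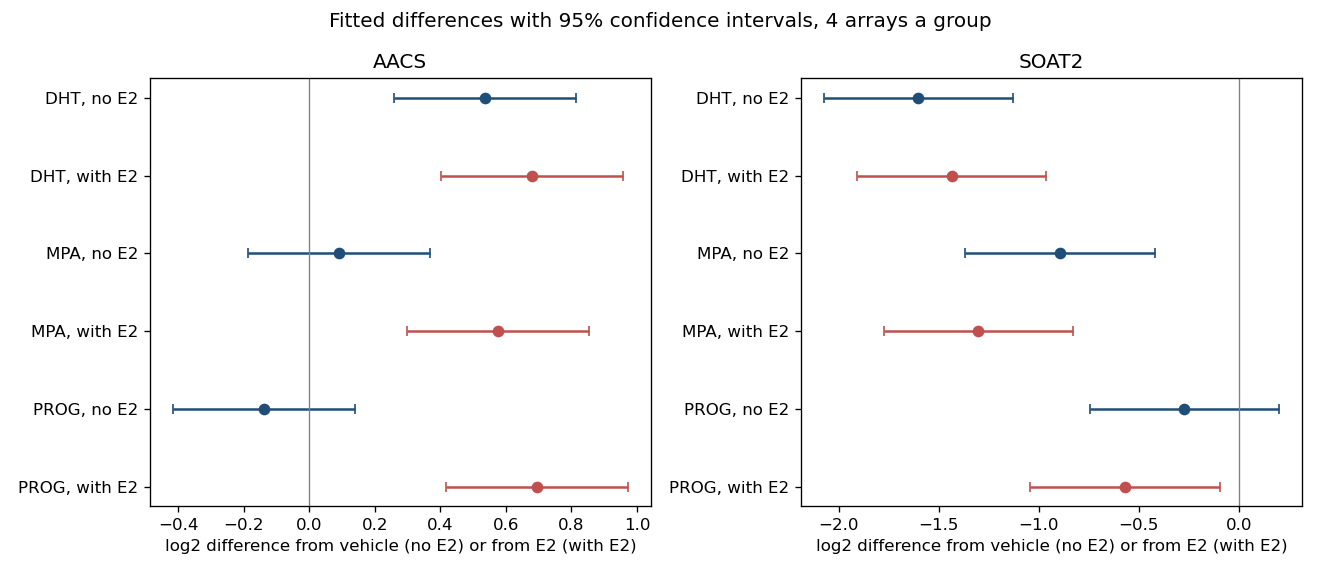
Fitted log2 differences of AACS and SOAT2 with 95% confidence intervals for DHT, MPA and PROG, given without E2 (blue, against vehicle) and with E2 (red, against E2), 4 arrays a group. The PROG intervals of AACS lie apart, from -0.42 to 0.14 without E2 and from 0.42 to 0.97 with it, whereas for SOAT2 the intervals with and without E2 overlap for all 3 steroids.

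MVK, mevalonate kinase, differed between DHT and PROG only. Its signal was 9.85, 9.59, 9.36 and 9.87 with DHT and 9.17, 8.46, 8.88 and 8.95 with PROG, without overlap, a difference of 1.74-fold (log2 0.80, SE 0.21, adjusted p = 0.0487). Vehicle lay between them at 9.34 ± 0.26 (SD, n = 4), and neither group passed against it (0.33, adjusted p = 0.534, and -0.47, 0.186). The call held without 2 of the 8 replicates in turn and was lost without the other 6 (DHT replicates 1, 2 and 4 and PROG replicates 2, 3 and 4), at 0.67 to 0.83 and adjusted p from 0.0902 to 0.225. It was also lost with the run as a block (0.48, adjusted p = 0.4, in a fit that called 1.03% of all genes), with median scaling (0.57, 0.4), without the filter on dim probes (0.80, 0.0596), outside the run, where DHT has a single array (0.49, 1), and with only these groups in the fit (0.80, 0.0903). MVK was higher by 0.43 on average inside the run than outside it in the same group.

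HMGCS1, which makes the precursor of mevalonate and is a classic target of SREBP2, was nearly the same on all vehicle arrays, at 12.53, 12.51, 12.48 and 12.51. Its group means ran from 12.51 ± 0.02 with vehicle to 13.08 ± 0.21 with E2+MPA (SD, n = 4), and it passed in no comparison. ACAT2 (the cytosolic thiolase, not the esterifying enzyme), PMVK, MVD and FDPS, which encodes farnesyl pyrophosphate synthase, had group means that spanned 0.40 to 0.62 on the log2 scale and no call.

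Of the genes of synthesis, 18 were tested, 8 up to farnesyl pyrophosphate and 10 of the sterol steps. In DHT against vehicle their median difference was 0.18, with 15 of 18 above 0 and 1 past the threshold, beside a median of -0.03 over all genes. With the run as a block the median was 0.13 and 10 of 18 were above 0. In E2 against vehicle the median was 0.09 with 11 of 18 above 0, and in E2+DHT against E2 it was 0.06 with 12 of 18 above 0, beside -0.02 and -0.03 over all genes. For MPA and PROG against vehicle the medians were -0.03 and -0.12, beside -0.11 over all genes in each.

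IDI1, MSMO1 and CYP51A1 had the widest differences between groups of all members, and none of them passed in the fit without the block. IDI1 isomerises the building block of isoprenoids, CYP51A1 demethylates lanosterol and MSMO1 removes methyl groups from the next sterols. On the vehicle arrays MSMO1 was at 7.96, 12.33, 11.64 and 10.98, so that replicate 1 lay far below the rest. With MPA it was at 12.48, 12.56, 12.68 and 12.55 and with PROG at 12.49, 12.49, 12.36 and 12.17. The differences from vehicle were 1.84 for MPA (interval 0.69 to 2.99, adjusted p = 0.0849) and 1.65 for PROG (interval 0.50 to 2.81, adjusted p = 0.143). Without vehicle replicate 1 they were 0.92 (adjusted p = 0.554) and 0.73 (0.612). Against vehicle, the other kept probe of MSMO1 differed by 0.70 with MPA and 0.77 with PROG.

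In E2 against vehicle, MSMO1 differed by 1.31 (adjusted p = 0.246), by 1.56 with the run as a block (0.033) and by 0.58 when vehicle replicate 1 was also left out (0.0604). In DHT against vehicle the same 3 values were 1.12 (adjusted p = 0.386), 1.62 (0.0385) and 0.69 (0.024). The size of these differences therefore rested on vehicle replicate 1, and on the other kept probe they were 0.11 for E2 and 0.40 for DHT.

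IDI1 was at 8.09, 9.88, 9.20 and 8.02 with vehicle and at 8.50, 10.38, 8.32 and 11.0002 with E2, where the low pair of E2 arrays came from the run. E2 differed from vehicle by 0.75 (adjusted p = 0.631) and by 1.28 with the run as a block (0.0256), or 0.88 with vehicle replicate 1 also left out (0.177). With DHT it was at 8.53, 8.19, 11.07 and 7.95, and the high value, replicate 3, was the only DHT array outside the run. DHT differed from vehicle by 0.14 (adjusted p = 0.969), by -0.57 without DHT replicate 3, by 1.20 with the run as a block (0.0471) and by 0.82 with vehicle replicate 1 also left out (0.235). MPA at 10.05, 10.02, 10.40 and 10.87 and PROG at 10.82, 10.20, 10.26 and 10.76 lay above every vehicle array, with differences of 1.54 (adjusted p = 0.196) and 1.71 (0.183), and no array of either group lies in the run. Outside the run alone those differences were 1.28 (adjusted p = 0.0274) and 1.45 (0.0216), in fits that called 5.69% and 5.96% of all genes, and with the run as a block and vehicle replicate 1 left out they were 0.57 (0.707) and 0.74 (0.582).

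CYP51A1 had the same shape. It was at 6.99, 9.10, 8.33 and 6.32 with vehicle, at 6.77, 9.69, 6.999 and 9.72 with E2 and at 6.05, 6.95, 9.83 and 6.88 with DHT, where the 3 low values were those of the run. E2 differed from vehicle by 0.61 (adjusted p = 0.732), by 1.23 with the run as a block (0.0242) and by 0.80 with vehicle replicate 1 also left out (0.174). DHT differed from PROG by -2.03 (interval -3.74 to -0.32, adjusted p = 0.28), and PROG was at 9.48, 9.29, 9.38 and 9.67. The 1 DHT array outside the run lay above every PROG array, and the difference was -0.19 with the run as a block and 0.37 outside the run, so that the direction turned.

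These 3 genes followed the direction on which arrays of 1 group differed. Over the 36 arrays, the correlation of a gene's deviation from its group mean with the score on that direction was 0.94 for IDI1 and 0.91 for CYP51A1 and MSMO1, given as a description since the genes entered the component and the arrays share groups. The mean difference between arrays inside the run and those outside it in the same group was -2.13 for IDI1, -2.46 for CYP51A1 and -1.0 for MSMO1. HSD17B7, SOAT1, INSIG2 and FDPS went the same way with r of 0.81, 0.71, 0.67 and 0.51. A further 12 members had r below -0.5, among them NSDHL and ABCG1 (-0.84 each), SCARB1 (-0.82), EBP (-0.81) and MVD (-0.80). Enzymes of 1 pathway thus stood on both sides, and over all genes 16.7% had r above 0.5 and 35% below -0.5, beside 7 and 12 of the 30 members. SOAT2 (-0.10), ABCA1 (0.05) and MYLIP (-0.18) did not follow it, whereas AACS had r = -0.68 and was higher by 0.20 inside the run.

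**Figure D4:**
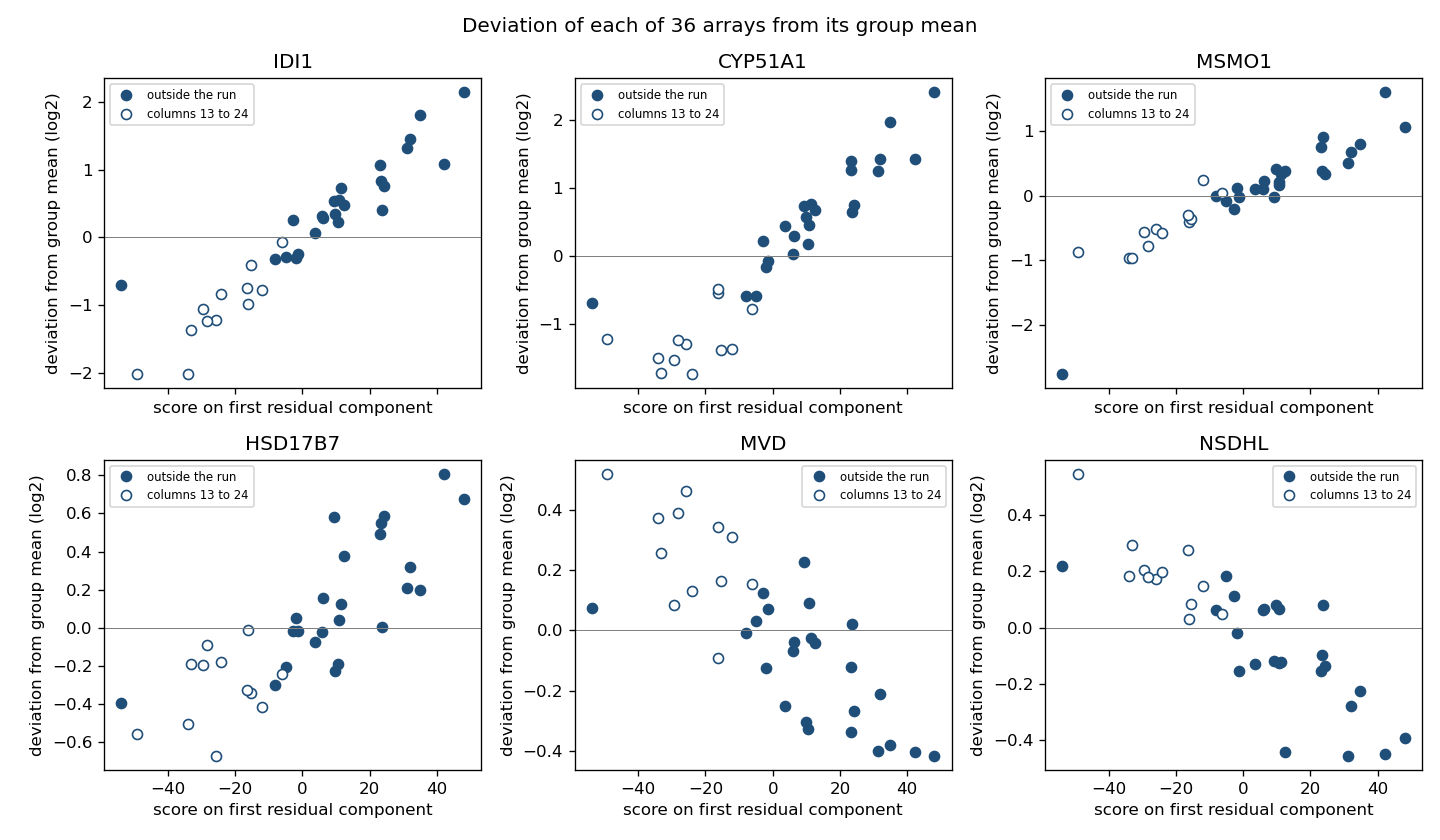
Deviation of each array from its group mean on the log2 scale against its score on the first residual component, for 6 members and 36 arrays; open points are columns 13 to 24. The slopes rise for IDI1, CYP51A1, MSMO1 and HSD17B7 and fall for MVD and NSDHL, and the lone filled point at a score of -53.8 is vehicle replicate 1.

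Of pairs of members, IDI1 and CYP51A1 had the closest deviations over the 36 arrays (r = 0.94), followed by MVD and TM7SF2 (0.89) and NSDHL and EBP (0.83). CYP51A1 and EBP were the most opposed (-0.86). The residual SD of a member ranged from 0.13 for MYLIP to 1.27 for CYP51A1 on the log2 scale, with a median of 0.25 beside 0.29 over all genes, and IDI1, CYP51A1 and MSMO1 stood at the 99.2, 99.6 and 97.5 percentiles of all genes. A difference in these 3 genes had to be large to pass: the SE of a difference between groups was 0.75 for IDI1, 0.84 for CYP51A1 and 0.57 for MSMO1, against 0.11 for MYLIP.

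The remaining sterol steps passed in no comparison. SQLE, which makes squalene epoxide and is a rate-controlling step, had group means from 12.42 with DHT to 12.83 with E2+DHT. DHT differed from vehicle by -0.20 on that probe and by 0.25 on the other kept probe of SQLE. The place of DHT as the lowest group was thus not shared by both probes. LSS, which closes the ring system to lanosterol, had group means from 9.66 with PROG to 10.39 with E2+DHT. HSD17B7, a sterol ketoreductase that also reduces estrone to estradiol, was at 11.41, 11.78, 10.64 and 10.96 with E2+MPA and at 11.63, 12.37, 11.15 and 12.14 with E2, a difference of -0.63 (interval -1.20 to -0.05, adjusted p = 0.277). In both groups the low pair came from the run. HSD17B7 has near-identical copies in the genome, so its signal is uncertain. DHCR7, the last reductase before cholesterol, was highest with E2+MPA, at 11.83, 11.98, 12.70 and 12.54, where the high pair came from the run, and it differed from E2 by 0.45 (interval 0.13 to 0.77, adjusted p = 0.14). TM7SF2, NSDHL, EBP and SC5D, the other reductase, decarboxylating, isomerase and desaturase steps, had group means that spanned 0.34 to 0.80.

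Among the regulators, INSIG2 was the only one with a call. INSIG2, an anchor that keeps SCAP in the endoplasmic reticulum, was at 10.94, 10.46, 10.83 and 10.52 with E2+PROG, where the low pair came from the run, and at 11.19, 11.13, 11.39 and 10.89 with E2s+PROG. The ranges overlapped by 1 array, and E2s+PROG lay 1.38-fold higher (log2 0.46, SE 0.13, adjusted p = 0.0495). The call was lost without any one of E2+PROG replicates 2, 3 and 4 or E2s+PROG replicates 1, 2 and 3, at 0.38 to 0.51 and adjusted p from 0.0511 to 0.284. It was lost in 12 of 22 alternatives in all, among them the replicate block (adjusted p = 0.0609) and median scaling (0.54, adjusted p = 0.844).

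SREBF2, the master regulator of the pathway, was dim: it was above background on 34 of 36 arrays with group means from 6.25 to 6.75, close to the lowest signal called above background. SCAP, its escort, had group means from 11.82 with vehicle to 12.46 with E2+MPA. INSIG1, itself a target of SREBP2, was at 10.64, 11.76, 11.42 and 11.41 with vehicle and between 11.36 and 12.11 on the E2 arrays, a difference of 0.35 (interval 0.01 to 0.69, adjusted p = 0.301). On its other kept probe that difference was 1.17, so the size was not settled between probes. The genes with group means most like INSIG1 were CAP2 (Pearson r = 0.965 across 9 group means), ACOT1 (0.951), KIT (0.94), ZWINT (0.936) and ELF1 (0.929).

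Of the 4 tested genes of uptake and lysosomal handling, MYLIP was the one that passed. MYLIP encodes a ubiquitin ligase, induced by sterol-sensing LXR receptors, that sends lipoprotein receptors to degradation. Its signal was 11.23, 11.22, 11.27 and 11.32 with E2 and 11.70, 11.63, 11.76 and 11.83 with E2+DHT, 2 narrow ranges that did not overlap. E2+DHT lay 1.39-fold above E2 (log2 0.47, SE 0.11, adjusted p = 0.0193). The size moved little, from 0.44 to 0.51, when a replicate was left out, but the adjusted p reached 0.0524 to 0.0934 without E2 replicate 1, 2 or 3 or E2+DHT replicate 3 or 4. The call was also lost with median scaling (0.39, adjusted p = 1), with the authors' processed values (0.53, 0.0659), with only these groups in the fit (0.47, 0.24) and on either side of the run (0.45 and 0.47, 1 and 0.381). DHT alone was at 11.91, 11.88, 11.77 and 11.77, against 11.78, 11.42, 11.34 and 11.35 with vehicle, a difference of 0.36 (adjusted p = 0.0825, and 0.0483 with the run as a block). Vehicle replicate 1 was the one that met the DHT range. The lowest group mean of MYLIP was that of E2+PROG, 11.07 ± 0.07 (SD, n = 4), which differed from E2 by -0.19 (interval -0.41 to 0.04, adjusted p = 0.717).

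SCARB1, the receptor that takes cholesterol ester from high-density lipoprotein, differed between DHT and vehicle by -0.23 in the fit without the block (adjusted p = 0.676) by -0.47 with it (0.0283) and by -0.39 with vehicle replicate 1 also left out (0.117). The DHT arrays were at 10.69, 10.55, 10.08 and 10.80 and the vehicle arrays at 10.88, 10.62, 10.56 and 10.96, so that the groups overlapped and the lowest value was the DHT array outside the run. Against vehicle, MPA differed by -0.49 (adjusted p = 0.143) and PROG by -0.46 (0.178). NPC1, which exports cholesterol from lysosomes, ran from a mean of 10.07 with PROG to 10.56 with E2+PROG, and LIPA, the lysosomal lipase that frees cholesterol from its esters, had the narrowest range of group means of all members, 0.19. Neither passed in any comparison.

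Of the pair of efflux genes, ABCA1, which loads cholesterol and phospholipid onto apolipoprotein particles, fell with DHT and with MPA. Its signal was 10.65, 11.17, 11.28 and 10.72 with vehicle, 10.24, 10.55, 10.30 and 10.38 with DHT and 10.36, 10.57, 10.33 and 10.46 with MPA. All DHT and MPA arrays lay below the lowest vehicle array. DHT lay 1.50-fold below vehicle (log2 -0.59, SE 0.14, adjusted p = 0.018) and MPA 1.44-fold (log2 -0.53, SE 0.14, adjusted p = 0.0468). The DHT call was lost without DHT replicate 1 or 3 or vehicle replicate 2 or 3, at -0.56 to -0.48 and adjusted p of 0.056 to 0.0958, and the difference was -0.33 inside the run and -0.74 outside it (adjusted p = 0.999 and 0.0963), where vehicle and DHT respectively have a single array. It was also lost with median scaling (-0.76, adjusted p = 0.161), with the authors' processed values (-0.56, 0.121) and with only these groups in the fit (-0.59, 0.475), and it passed with the run as a block (-0.61, 0.0106). The MPA call was lost without any MPA replicate or without vehicle replicate 3, at -0.57 to -0.42 and adjusted p of 0.053 to 0.142. It was also lost with the replicate block (adjusted p = 0.055), with only these groups in the fit (0.258), with median scaling (-0.39, 0.47) and with the authors' processed values (-0.32, 0.317).

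With PROG alone ABCA1 was at 10.49, 10.72, 10.69 and 10.55, and the difference from vehicle was -0.34 (interval -0.63 to -0.05, adjusted p = 0.171). On top of E2 it was not past the threshold with any steroid. The E2 arrays were at 11.003, 10.47, 10.63 and 10.55, against 10.44, 10.30, 9.90 and 10.11 with E2+DHT, a difference of -0.48 (interval -0.77 to -0.19, adjusted p = 0.146). E2+MPA differed from E2 by -0.38 (adjusted p = 0.173) and E2+PROG by -0.42 (0.148). The interactions were between -0.08 and 0.15 with adjusted p from 0.656 to 0.962, so a difference in the ABCA1 response with and without estradiol was not shown. The group means most like those of ABCA1 were of VEGFC (Pearson r = 0.988 across 9 group means), GPC5 (0.972), CAMLG (0.969), CBLN2 (0.955) and SORBS2 (0.953).

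ABCG1, which exports cholesterol to high-density lipoprotein, was at 10.93, 9.71, 10.34 and 10.35 with vehicle, a wide range. It was at 9.77, 9.75, 9.18 and 9.77 with DHT and at 9.61, 9.52, 9.40 and 9.63 with MPA. The differences from vehicle were -0.72 with DHT (adjusted p = 0.0968), -0.79 with MPA (0.0629) and -0.71 with E2 (0.114), and with the run as a block -0.92 (0.00349), -0.69 (0.0417) and -0.81 (0.00708). With vehicle replicate 1 also left out the blocked values were -0.70 (adjusted p = 0.0168), -0.44 (0.369) and -0.58 (0.0504). Its 4 kept probes disagreed: the other 3 gave -0.22, 0.34 and -0.07 for DHT against vehicle, and the probe used was the brightest.

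Of 49 further genes of sterol sensing, trafficking and lipid synthesis, 35 were tested. In E2 against vehicle 1 of 35 was higher, beside 1.86% of all genes called in either direction. It was TMEM97, which encodes a sterol-binding membrane protein of the endoplasmic reticulum and lysosome (log2 0.59, SE 0.16, adjusted p = 0.0484). DHT, MPA and PROG against vehicle called 0 of 35 (limma). At an unadjusted p under 0.05 they had 3, 5 and 5, beside 13.6%, 25.5% and 23.6% of all genes. E2+MPA and E2s+PROG against E2 also called 0, with 3 and 1 at that unadjusted p, beside 15.3% and 1.78% of all genes. The same held for MPA relative to PROG and to DHT, with 0 and 4, beside 3.33% and 11.1% of all genes. Estradiol's interactions with DHT and with MPA also called 0, with 2 and 4, beside 5.47% and 24.1% of all genes. In E2+DHT against E2 1 was higher, beside 1.08% of all genes, namely NCEH1, a hydrolase of cholesterol esters (log2 0.57, SE 0.13, adjusted p = 0.0163). NCEH1 was also the 1 gene higher with DHT than with PROG (0.61, adjusted p = 0.00836), beside 1.38% of all genes.

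In E2+PROG against E2 2 of the 35 were higher, beside 2.51% of all genes. They were the desaturase gene FADS1 (log2 1.92, SE 0.22, adjusted p = 2.85e-07) and the caveolin gene CAV1. CAV1 was above background on 4 of 4 E2+PROG arrays, with a mean of 6.31, and on 0 of the E2, E2s+PROG, PROG and vehicle arrays. Its folds are therefore bounds. The filter asks for 4 arrays above background, and CAV1 met it only through the E2+PROG group, as E2+MPA had 1 such array. Its calls therefore carry that selection, and no p-value is given for it. Against the lowest signal above background on each dim array, CAV1 was at least 1.25-fold higher with E2+PROG than with E2, and E2s+PROG lay at least 1.27-fold below E2+PROG. FADS1 was lower with E2s+PROG than with E2+PROG by a log2 of -1.43, and these were the 2 genes of the list called there, beside 1.74% of all genes. FADS1 passed in the interaction of E2 and PROG, beside 1.54% of all genes, as AACS did. CAV1 also passed there, with the same limit from the filter. The interaction was 1.93 for FADS1, and no size is given for CAV1, which was not above background in 3 of the 4 groups.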

How the data were processed

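RNA of 36 ZR-75-1 samples was measured on Illumina bead arrays. The authors deposited an unnormalised probe intensity and a detection p-value for each array, per the file headers, and a second, processed intensity table, in which each array's column was a straight line of the unnormalised intensity with slopes from 0.324 to 1.57. The software and version behind those tables are not given in the sources used here.

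The unnormalised intensity was corrected for background with neqc (offset 16, background inferred from the detection p-value), quantile normalised and put on the log2 scale with limma 3.58.1 in R 4.3.3. The filter required a detection p-value under 0.05 on 4 or more arrays and left 21116 of 48803 probes, and each gene is represented by its brightest remaining probe on average. Names come from the platform annotation (27541 of its 27578 single-symbol probes were found in the reference table through their gene identifier). Of the members, 9 had more than 1 kept probe. A member counts as above background on an array if any of its probes does. A limma model with 9 group means was fitted to all arrays (27 residual degrees of freedom), adjusted p-values are Benjamini-Hochberg over the 12195 genes of 1 comparison, and intervals have 95% confidence. Precision is limited by the number of arrays. The tests are two-sided. The fit was also tried on simulated data with independent noise on each array and no run, so that trial does not bear on the run.

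The members, lists, motifs and tests were chosen with earlier results of these data known. Members were named by pair if they passed in the fit without or with the run as a block, and in comparisons with fewer than 4 such pairs the 4 with the largest differences were also given as values. The alternatives were a replicate block, the run or 3 sets of 12 columns as a block, either side of the run, the compared groups alone, array weights, other background, scaling, filter and probe choices, the authors' processed values and each replicate left out. The run block without vehicle replicate 1 was added after the data were seen.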

Additional observations from a re-analysis of the deposited data

Results flagged for a closer look

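In a group of 4, 1 array stood apart from the other 3 by Dixon's criterion in 10 of 108 groups of 12 members, and chance alone marks about 1 in 20 groups. SOAT2 was at 7.99 on E2s+PROG replicate 4, against 7.67 on the other 3 arrays. AACS was at 10.72 on E2+DHT replicate 2, below 10.89 to 10.93. ABCG1 was at 9.18 on DHT replicate 3, below 9.75 to 9.77, and at 9.68 on PROG replicate 3, below the other 3. SOAT1 was at 7.44 on MPA replicate 3, above 6.77 to 6.84.

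The other 5 lay in the 3 sterol genes that followed the residual direction. MSMO1 was at 12.92 on DHT replicate 3, the only DHT array outside the run, above 11.44 to 11.54. MSMO1 at 11.51, IDI1 at 8.75 and CYP51A1 at 6.96 were low on E2+DHT replicate 1, and MSMO1 at 11.36 was low on E2s+PROG replicate 4, each the only array of its group inside the run. The part of the run in these values was not tested further.

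E2s+PROG did not share the higher AACS of E2+PROG, and it did not enter the following test. The response of AACS to progesterone differed between cells with and without estradiol by a log2 of 0.84 in the test of the difference itself. With the run as a block it was 0.79 (adjusted p = 0.00762), although no PROG array lies in the run. It passed in 22 of 29 alternatives (limma). Among those that lost it were median scaling (0.60, adjusted p = 0.318), the authors' processed values (0.59, 0.079) and arrays outside the run (0.63, 0.163). The dose of estradiol in E2+PROG is not stated, so a difference in dose cannot be told apart from the treatment in that test.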

How the results depend on the processing

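No count of members past the threshold moved by over 1.5 times without background correction, without the filter on dim probes, or with detection required on all 4 arrays of a group. Leaving out 1 replicate gave 0 to 1 members for E2, 1 to 4 for DHT, 0 to 6 for MPA and 0 to 1 for PROG against vehicle, while 1.28% to 4.55%, 1.34% to 3%, 0.976% to 13.9% and 0.0082% to 7.73% of all genes were called. Against E2 it gave 2 to 3 for E2+DHT, 1 to 3 for E2+MPA, 1 to 2 for E2+PROG and 0 to 0 for E2s+PROG (0.771% to 1.03%, 1.28% to 6.01%, 1.71% to 2.26% and 0.082% to 0.0902%). It gave 1 to 2 for E2s+PROG against E2+PROG (1.12% to 1.57%), 0 to 0 for MPA against PROG (0.336% to 0.451%) and for DHT against MPA (0.246% to 0.631%), and 2 to 6 for DHT against PROG (0.902% to 6.32%). For the interactions of E2 with DHT, MPA and PROG it gave 0 to 0, 0 to 2 and 0 to 2 (0% to 0.0164%, 0.0246% to 7.83% and 0.951% to 3.22%). The following are the counts that moved by over 1.5 times under another setting, and the cause was not tested.

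The share of all genes called in the same fit stands in brackets after each. With the run as a block there were 5 members for E2 (12.4%) and 8 for DHT (8.28%) against vehicle, and without vehicle replicate 1 as well, 6 for DHT (2.75%) and 1 for MPA (1.25%) against vehicle and 4 for E2+MPA (7.52%) and 2 for E2+PROG (4.27%) against E2. With 3 sets of 12 columns as a block there were 5 for E2 (10.5%), 5 for DHT (5.7%) and 1 for MPA (1.77%) against vehicle, 2 for E2+PROG against E2 (3.42%) and 2 for the interaction with PROG (4.21%). Array weights gave 3 for E2 (6.85%), 5 for DHT (3.86%) and 1 for PROG (4.61%) against vehicle, 1 for E2+MPA (1.66%) and 2 for E2+PROG (3.49%) against E2, 11 for DHT against MPA (14.2%), 16 for DHT against PROG (22.8%) and 4 for the interaction with PROG (4.98%). The authors' processed values gave 2 for E2 (2.01%) and 1 for MPA (1.61%) against vehicle, 1 for E2s+PROG against E2+PROG (1.56%) and 0 for the interaction with PROG (1.25%). Averaging probes gave 1 for MPA against vehicle (1.8%). Scaling by the median gave 1 for DHT (0.763%) and 0 for MPA (0.779%) against vehicle, 1 for E2+DHT (0.517%), 1 for E2+MPA (0.861%) and 0 for E2+PROG (1.2%) against E2, 0 for E2s+PROG against E2+PROG (0.828%), 1 for DHT against PROG (0.402%) and 0 for the interaction with PROG (0.5%). With only the groups compared in the fit, and so fewer arrays, there was 1 for DHT (0.279%) and 0 for MPA (0.328%) against vehicle, 1 for E2+DHT (0.459%), 0 for E2+MPA (0.558%) and 0 for E2+PROG (1.18%) against E2, 0 for E2s+PROG against E2+PROG (1.12%), 1 for DHT against PROG (0.836%) and 0 for the interaction with PROG (0.886%). Inside the run alone there was 1 for DHT against vehicle (0.148%), 0 for E2+DHT (0.115%), 1 for E2+MPA (4.82%) and 0 for E2+PROG (0.73%) against E2 and 0 for E2s+PROG against E2+PROG (0.336%). Outside it there were 3 for E2 (10.5%), 5 for MPA (5.69%) and 2 for PROG (5.96%) against vehicle, 1 for E2+DHT (0.689%), 0 for E2+MPA (0.722%) and 0 for E2+PROG (1.09%) against E2, 0 for E2s+PROG against E2+PROG (0.894%), 1 for DHT against PROG (0.23%) and 0 for the interaction with PROG (1.43%).

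SOAT2 in DHT against vehicle and against PROG passed in all 22 and 21 alternatives, which include fits on 1 side of the run that rest on a single DHT or vehicle array. Differences of DHT from vehicle changed sign for SCARB1 with array weights (0.017) and for IDI1 with array weights (-0.66), median scaling (-0.004), without DHT replicate 3 (-0.57), without vehicle replicate 1 (-0.10) and without vehicle replicate 4 (-0.12); with a replicate left out, the IDI1 difference ran from -0.574 to 0.498. The replicate numbers share only a label: deviations of same-numbered arrays in 144 pairs correlated from -0.733 to 0.698 with a median of 0.0275, and 63 pairs were above 0.1. With the replicate block the count was 1 for MPA against vehicle (1.95%) and 1 for E2s+PROG against E2+PROG (1.66%), and the others did not move by over 1.5 times. Signal near background limits SOAT1, SOAT2, SREBF2 and CYP51A1, which were not above background on all 36 arrays.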
